A study of Mus musculus with 20 samples.

Results

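Duox2, Duoxa2, Duoxa1, Nos2, Nox1, Noxo1, Noxa1, and Cyba encode 2 oxidases of the gut lining, the proteins that these oxidases need, and the inducible nitric oxide synthase. They were found in the table of gene counts by their names in GENCODE and are 8 of its 19887 genes. All 8 had enough reads to be tested, as had 15348 genes in all. RNA from the cecum of 20 C57BL/6 mice was measured by RNASeq, 5 mice on each of 4 diets. From 3 weeks of age every mouse ate the Total Western Diet (TWD), a rodent diet built on American nutrient intakes, for 6 weeks. For the next 3 weeks 1 group stayed on the TWD (0% RPS) and the other groups ate the TWD with 2, 5, or 10% raw potato starch (RPS), a resistant starch that passes undigested into the cecum and is fermented there. The labels name no litter, cage, or batch, and the mice of each diet are numbered 1 to 5 here.

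DUOX2 is an oxidase in the apical membrane of gut epithelial cells that releases hydrogen peroxide into the mucus, and it leaves the endoplasmic reticulum only with its maturation factor DUOXA2. DUOXA1 is the maturation factor that pairs with the related oxidase DUOX1. NOX1 is the superoxide-producing oxidase of the colon and cecum, which works with the membrane subunit p22phox (encoded by Cyba), the organizer NOXO1, and the activator NOXA1. NOS2 makes nitric oxide from arginine and is known as an enzyme that epithelial cells and macrophages induce in response to microbes and cytokines. DUOX2 is known to be induced by such signals in epithelial cells. The questions were how much of each transcript the cecum held with each level of RPS, and whether the 8 transcripts moved together from mouse to mouse.

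Total counts were between 14967798 and 42687283 per mouse, and the floor used here, 3 counts in a library, was at most 0.200 CPM (read counts scaled by library size). The 10 epithelial markers (among them Epcam, Cdh1, and Vil1) summed to between 13083 and 19275 CPM in every mouse, and 0 of the 10 passed the threshold with 10% RPS by edgeR or DESeq2, with 4 lower at an unadjusted p under 0.05, where 9.75% of all tested genes were lower and 9.74% higher. Surface colonocyte markers summed to 14181 to 15689 CPM with 0% RPS and 13252 to 19098 CPM with 10% RPS, and 2 of 10 (Saa1 and Slc26a3) were higher past the threshold, where 0.547% of all genes were, with 3 higher and 2 lower at an unadjusted p under 0.05. Fibroblast markers summed to 624 to 815 CPM with 0% RPS and 728.9 to 1061 CPM with 10% RPS, and 0 of 10 passed by edgeR or DESeq2, with 4 higher and 1 lower at an unadjusted p under 0.05. Macrophage markers summed to 148 to 307 CPM with 0% RPS and 195 to 342 CPM with 10% RPS, with 0 of 9 tested markers past the threshold by edgeR or DESeq2 and 1 higher at an unadjusted p under 0.05. Smooth muscle markers summed to 3124 to 7073 CPM with 0% RPS and 5082 to 8418 CPM with 10% RPS, and 2 of 10 (Actg2 and Synpo2) were higher past the threshold, against 0.547% of all genes. Of the 10 muscle markers 7 were higher at an unadjusted p under 0.05, against 9.74% of all genes, and their median log2 fold change was 0.61. Neutrophil markers summed to 1.39 to 19.2 CPM with 0% RPS, highest in mouse 1, and 2.27 to 3.86 CPM with 10% RPS. Of this list S100a8 and S100a9 were at most 0.391 CPM in these mice, and 0 of the 2 tested markers passed by edgeR, with 1 lower at an unadjusted p under 0.05, Ly6g (5.73 ± 6.49 against 0.866 ± 0.545 CPM (SD, n = 5), adjusted p = 0.0969 by edgeR), which DESeq2 called. B and plasma cell markers summed to 431 to 731.6 CPM with 0% RPS and 448 to 783 CPM with 10% RPS, with a median log2 fold change of 1.84 and 0 of 9 tested markers past the threshold by edgeR or DESeq2 (0 higher and 1 lower at an unadjusted p under 0.05). In whole tissue, fewer cells of a type and less RNA per cell cannot be told apart, and the part of epithelial, fibroblast, muscle, endothelial, neutrophil, or B cell content in the results below was not tested. Genes were tested with edgeR's quasi-likelihood model of all 20 mice, and a gene was past the threshold with a Benjamini-Hochberg adjusted p, taken over all tested genes, of at most 0.05 and a fold change of at least 1.5.

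Duox2 (ENSMUSG00000068452, chr2:122109728-122128930 on GRCm39, minus strand) lies head to head with Duoxa2 (ENSMUSG00000027225, chr2:122129380-122133366, plus strand), with 449 bases between the gene ends. Duoxa1 (ENSMUSG00000027224, chr2:122132672-122144217, minus strand) meets Duoxa2 tail to tail, and 682 of Duoxa2's 1593 exon bases are also Duoxa1 exon. Because Duox2 and Duoxa2 moved together in the values below, the 250 bases before the start of each are shown, 5′ to 3′ on the gene's own strand, from the promoters of RefSeq on GRCm38 (chr2:122298228-122298477, minus strand, for Duox2 and chr2:122298650-122298899, plus strand, for Duoxa2). The 2 RefSeq starts are 672 bases apart, more than the 449 bases between the gene ends. The 2 annotations therefore place a start differently, and part of a window shown can lie inside a gene span given above. Capitals mark matches to the motifs searched.
Duox2: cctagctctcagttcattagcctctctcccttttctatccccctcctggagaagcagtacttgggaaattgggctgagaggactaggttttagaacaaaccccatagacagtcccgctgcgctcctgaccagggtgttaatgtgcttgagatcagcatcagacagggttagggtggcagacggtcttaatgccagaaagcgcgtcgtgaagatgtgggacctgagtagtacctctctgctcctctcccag
Duoxa2: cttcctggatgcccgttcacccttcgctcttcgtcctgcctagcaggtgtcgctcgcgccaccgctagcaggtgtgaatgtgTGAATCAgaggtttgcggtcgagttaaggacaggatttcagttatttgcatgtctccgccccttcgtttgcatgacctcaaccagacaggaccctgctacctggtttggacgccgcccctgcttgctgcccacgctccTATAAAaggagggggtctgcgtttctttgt
The motifs were searched on both strands: the STAT motif TTCNNNGAA, the ISRE motif, the AP-1 motif TGANTCA, the TATA motif TATAAA, and the NF-kB motif. The capitals in Duoxa2 are an AP-1 match 168 to 162 bases and a TATA match 30 to 25 bases before the start. These letters are not in the Duox2 window, and whether that window is the promoter used in the cecum was not tested. Of 32851 mouse promoters of the same length, 6.75% held an AP-1 match, 12.4% a TATA match, 7.02% a STAT match, 2.98% an ISRE match, and 7.25% an NF-kB match. The promoters of Duoxa1, Noxo1, and Cyba held none of the 5 motifs in this window, and 7 of the 8 genes had a promoter in the table.

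With 10% RPS, 4 of the 8 genes were higher than with 0% RPS past the threshold: Duoxa2, Nos2, Duox2, and Noxa1. Among all 15348 tested genes, 1.04% passed in either direction and 0.547% as higher. The fold changes were 6.58 for Duoxa2, 5.596 for Nos2, 3.97 for Duox2, and 1.504 for Noxa1. In 3 of the 8 genes (Nos2, Noxa1, and Noxo1) every mouse fed 10% RPS was above every mouse fed 0% RPS, against 1.68% of all tested genes higher and 4.88% in either direction. At an unadjusted p under 0.05, 7 of the 8 were higher by edgeR, against 9.74% of all tested genes, and DESeq2 called the same 4 as edgeR, where it called 2.47% of its genes. None of the 8 was lower, and the levels of Duoxa1, Nox1, Noxo1, and Cyba did not pass.

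**Figure D1:**
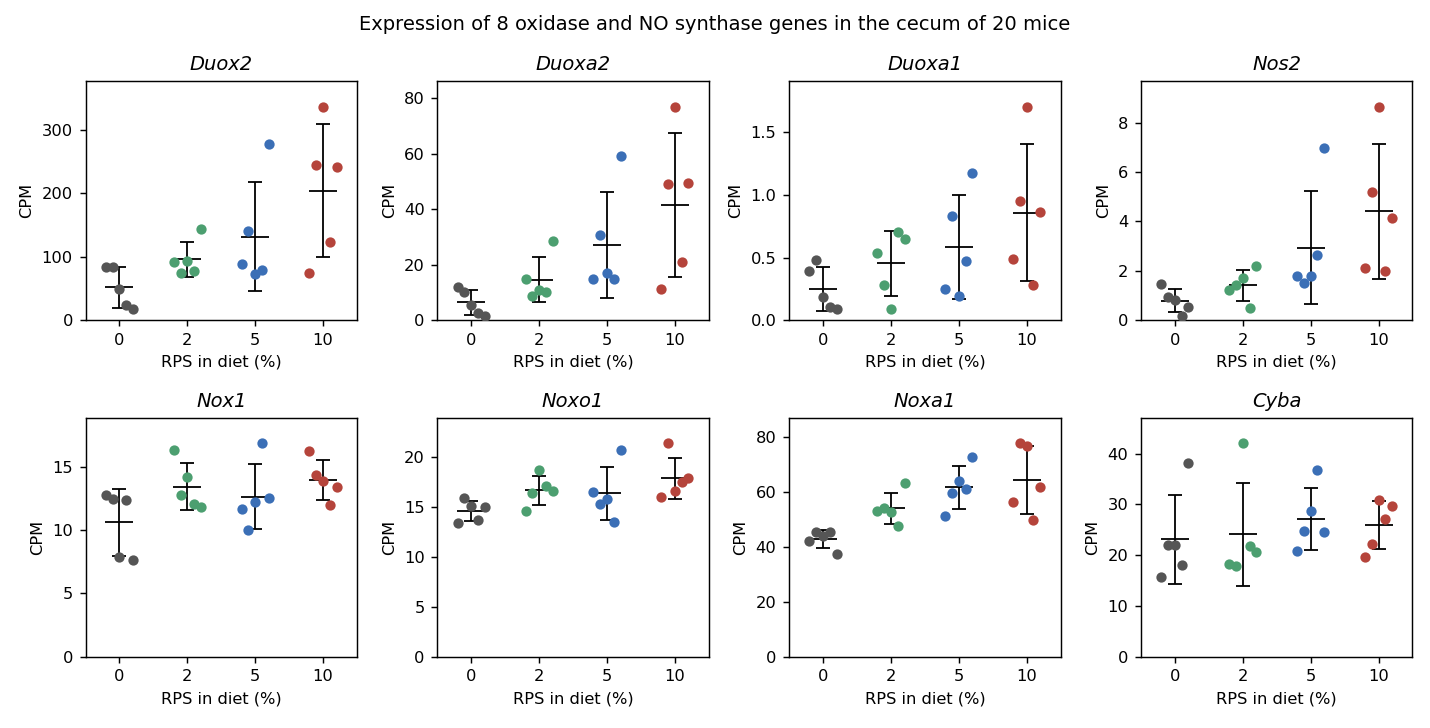
Expression of the 8 genes in each of the 20 mice, in CPM on a linear axis from 0, by the percentage of RPS in the diet. Each point is 1 mouse, and bars are the mean and SD of 5 mice. Duox2, Duoxa2, and Nos2 spread widely within a diet and reach their highest values with 10% RPS (337, 77.0, and 8.66 CPM), while Nox1 and Noxo1 stay between 7.63 and 21.3 CPM.

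Duox2 was at 83.9, 83.5, 49.1, 23.0, and 17.7 CPM in mice 1 to 5 with 0% RPS. It was at 92.1, 74.3, 93.3, 77.9, and 143 CPM with 2% RPS, and at 89.0, 140.0, 72.1, 79.1, and 277 CPM with 5% RPS. With 10% RPS it was at 74.9, 244, 337, 123, and 242 CPM. The 10% RPS mice split into 3 with over 240 CPM and 2 with less, and mouse 1 of that diet lay below the 2 highest mice of the 0% RPS group, so the groups overlapped. The mean was 51.5 ± 31.7 CPM (SD, n = 5) with 0% RPS, 96.2 ± 27.7 with 2%, 131 ± 85.8 with 5%, and 204 ± 105 with 10%. The log2 fold change of 10% against 0% RPS was 1.99 ± 0.50 (SE), and the 95% interval of the fold was 1.92 to 8.22. The adjusted p by edgeR was 0.0487, close to the threshold.

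Duoxa2, the partner without which DUOX2 does not reach the membrane, was at 12.0, 10.0, 5.48, 2.65, and 1.58 CPM in the 0% RPS mice. It was at 14.7, 8.63, 11.02, 10.2, and 28.4 CPM with 2% RPS, and at 14.7, 30.6, 16.9, 14.7, and 59.3 CPM with 5% RPS. With 10% RPS it was at 11.3, 49.2, 77.0, 21.0, and 49.4 CPM. The mice stood nearly in the order of their Duox2 levels, and again only 10% mouse 1 lay within the 0% RPS range. The log2 fold change of 10% against 0% RPS was 2.72 ± 0.62 (SE), with an adjusted p of 0.0347 by edgeR and an interval of 2.66- to 16.3-fold.

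Duoxa1 was the scarcest of the 8, with 322 counts over all mice and 3 to 54 counts in a mouse. Its mean was 0.249 ± 0.177 CPM (SD, n = 5) with 0% RPS and 0.859 ± 0.547 with 10% RPS, and its highest value was 1.71 CPM, in 10% mouse 3. The groups overlapped, and the log2 fold change of 1.82 ± 0.60 (SE) had an adjusted p of 0.109 by edgeR. By DESeq2 the adjusted p was 0.0522, close to the threshold. Whether reads were assigned by strand is not given in the sources used here, so reads from the exon bases that Duoxa1 and Duoxa2 share may have been counted for either. Duox1, the oxidase that DUOXA1 serves, was under the count filter, with at most 10 counts in a mouse fed 0% or 10% RPS.

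Nos2 (ENSMUSG00000020826, chr11:78811613-78851080, plus strand) was at 1.46, 0.956, 0.825, 0.168, and 0.545 CPM in the 0% RPS mice. It was at 1.22, 1.43, 1.71, 0.482, and 2.19 CPM with 2% RPS, and at 1.78, 1.497, 1.78, 2.64, and 6.97 CPM with 5% RPS. With 10% RPS it was at 2.13, 5.19, 8.66, 1.98, and 4.13 CPM. The lowest 10% RPS mouse was above the highest 0% RPS mouse, and so was the lowest 5% RPS mouse. The log2 fold change of 10% against 0% RPS was 2.48 ± 0.55 (SE), with an adjusted p of 0.0289 by edgeR and an interval of 2.52- to 12.4-fold. The values rest on 5 to 274 counts in a mouse.

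Noxa1 (ENSMUSG00000036805, chr2:24975679-24985181, minus strand), the activator of NOX1, differed less in size but more evenly. It was at 42.3, 45.6, 43.8, 45.5, and 37.5 CPM with 0% RPS, and at 52.9, 54.1, 52.8, 47.5, and 63.1 CPM with 2% RPS. It was at 51.3, 59.6, 63.9, 61.1, and 72.9 CPM with 5% RPS, and at 56.5, 77.7, 76.8, 49.9, and 61.7 CPM with 10% RPS. Every mouse fed RPS at any level was above every mouse of the 0% RPS group. The log2 fold change of 10% against 0% RPS was 0.59 ± 0.12 (SE), with an adjusted p of 0.0251 by edgeR, and the fold of 1.504 was only just over the required 1.5. The interval of the fold was 1.27 to 1.78.

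The rest of the NOX1 complex did not pass the threshold. Nox1 (ENSMUSG00000031257, chrX:132987170-133122705, minus strand) was at 12.8, 12.5, 7.84, 12.4, and 7.63 CPM with 0% RPS and at 16.2, 14.4, 13.8, 12.0, and 13.4 CPM with 10% RPS. Its lowest 2 values were in 0% mice 3 and 5, and the log2 fold change was 0.39 ± 0.16 (SE) with an adjusted p of 0.189 by edgeR. Noxo1 (ENSMUSG00000019320, chr17:24914682-24919504, plus strand) was at 13.3, 15.8, 15.04, 13.7, and 14.98 CPM with 0% RPS and at 15.96, 21.3, 16.6, 17.4, and 17.9 CPM with 10% RPS. The groups did not overlap, but the log2 fold change was 0.29 ± 0.11 (SE) with an adjusted p of 0.148 by edgeR. Of Noxo1's 4358 exon bases, 2302 are also exon of Tbl3 on the other strand, so its counts share the uncertainty given for Duoxa1. To a lesser extent this holds for Nox1 (564 of 3307 exon bases, with Cstf2), Cyba (423 of 2305, with Il17c), and Noxa1 (50 of 1637, with Entpd8). Cyba (ENSMUSG00000006519, chr8:123150422-123159706, minus strand), whose p22phox also serves the phagocyte oxidase, was at 15.7, 21.98, 21.9, 18.1, and 38.1 CPM with 0% RPS and at 19.7, 22.3, 30.8, 27.1, and 29.6 CPM with 10% RPS. The groups overlapped, the log2 fold change was 0.16 ± 0.25 (SE) with an adjusted p of 0.770 by edgeR, and the interval of 0.779- to 1.60-fold does not show that the levels were equal.

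The promoters of Noxa1 and Nox1 are shown because these genes of 1 complex differed in whether they passed, and each held a match to the same motif (RefSeq, GRCm38, chr2:25095206-25095455 for Noxa1 and chrX:134111855-134112104 for Nox1, both on the minus strand). Capitals mark the NF-kB match.
Noxa1: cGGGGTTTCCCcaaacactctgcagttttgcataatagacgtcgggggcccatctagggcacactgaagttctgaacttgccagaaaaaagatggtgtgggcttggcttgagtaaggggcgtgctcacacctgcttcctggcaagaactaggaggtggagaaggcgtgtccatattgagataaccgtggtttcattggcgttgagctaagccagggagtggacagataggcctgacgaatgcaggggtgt
Nox1: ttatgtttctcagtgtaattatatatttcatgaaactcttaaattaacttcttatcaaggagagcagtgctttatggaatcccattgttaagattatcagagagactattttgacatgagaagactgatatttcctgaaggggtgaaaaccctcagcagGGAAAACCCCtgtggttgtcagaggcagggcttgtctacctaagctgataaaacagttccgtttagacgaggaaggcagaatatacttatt
The match lies 249 to 240 bases before the start of Noxa1, where both strands fit the motif, and 91 to 82 bases before the start of Nox1. The gene that passed the threshold and the gene that did not both held one, and 7.25% of all promoters do.

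The 4 calls depended on the fit and on single mice. With only the 2 diets in the fit 1 of the 8 genes (Noxa1) passed, and with a test of the fold against 1.5 (glmTreat) 0 did. Without 0% mouse 3, 0% mouse 5, 10% mouse 2, or 10% mouse 3, 0 of the 8 genes passed, without 0% mouse 4, 10% mouse 1, or 10% mouse 5 only Noxa1 did, and without 0% mouse 1 only Duoxa2 and Nos2 did. Without 2% mouse 1, 2, 4, or 5, or 5% mouse 1, 2, or 3, Duox2 alone was lost. Over the 10 fits that left out a mouse of either diet, the log2 fold change stayed between 1.74 and 2.24 for Duox2, 2.38 and 3.09 for Duoxa2, 2.09 and 2.84 for Nos2, and 0.51 and 0.67 for Noxa1.

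With 5% RPS, 0 of the 8 genes differed from 0% RPS past the threshold by edgeR, where 0.195% of all genes passed. At an unadjusted p under 0.05, 4 were higher: Duox2, Duoxa2, Nos2, and Noxa1, against 6.74% of all genes. Duoxa2 had a log2 fold change of 2.10 ± 0.61 (SE) and an adjusted p of 0.122 by edgeR. Nos2 had a log2 fold change of 1.88 ± 0.55 and an adjusted p of 0.119 by edgeR, and Noxa1 had 0.52 ± 0.12 and 0.0552. DESeq2's Wald test called 2 of the 8, Duoxa2 (adjusted p = 0.0269) and Nos2 (adjusted p = 0.0191), where it called 1.41% of all genes. The 5% and 0% RPS mice did not overlap in 3 of the 8 genes, Duoxa2, Nos2, and Noxa1, against 1.53% of all genes higher without overlap and 3.57% in either direction. Without 5% mouse 1, Noxa1 passed by edgeR. Of the 10 smooth muscle markers, 10 were higher and 0 lower at an unadjusted p under 0.05 with 5% RPS (median log2 fold change 0.75). Among them 1 passed, against 0.0977% of all genes higher. Of the 10 fibroblast markers, 8 were higher and 0 lower at that level (median 0.43), and 0 passed. The part of these cell types in the 5% RPS values was not tested.

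With 2% RPS, 0 of the 8 genes passed by edgeR, as did 0% of all genes, and DESeq2 called 0 of the 8 and 0.027% of its genes. Noxa1 was the 1 gene with an unadjusted p under 0.05 (log2 fold change 0.33 ± 0.12 (SE), adjusted p = 0.815 by edgeR), against 2.58% of all genes higher at that level and 5.77% in either direction. It was also the 1 gene whose groups did not overlap, against 0.417% of all genes higher and 1.09% in either direction. Duox2 had a log2 fold change of 0.90 ± 0.49 and Duoxa2 of 1.21 ± 0.60. The 2, 5, and 10% RPS diets were each set against the same 5 mice, so their fold changes are not independent of each other.

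**Figure D2:**
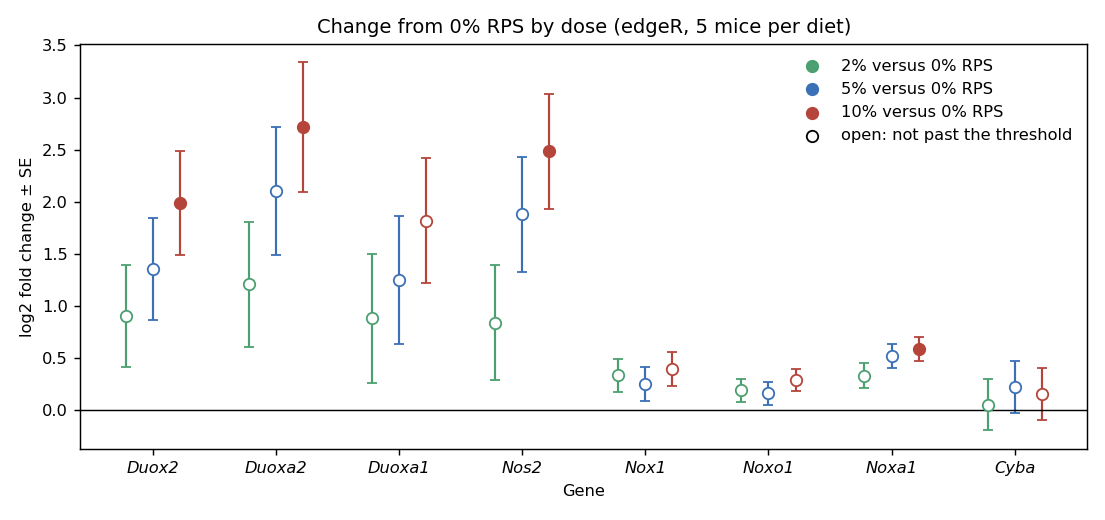
Log2 fold change from 0% RPS of each of the 8 genes with 2, 5, and 10% RPS, with bars for the SE. Filled points passed the threshold (Duox2, Duoxa2, Nos2, and Noxa1 with 10% RPS), open points did not, and the 3 diets share the 0% RPS mice.

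Between the RPS levels, 0 of the 8 genes passed by edgeR for 5% against 2%, 10% against 5%, or 10% against 2% RPS, and 0% of all genes did in each of these comparisons. DESeq2 also called 0 of the 8 in each, and at most 0.0054% of its genes. For 10% against 2% RPS, 4 of the 8 (Duox2, Duoxa2, Nos2, and Noxa1) were higher at an unadjusted p under 0.05, against 2.38% of all genes. Nos2 differed most by its p, with a fold of 3.13 (95% interval 1.46 to 6.69). At an unadjusted p under 0.05, 0 of the 8 differed for 5% against 2% RPS, where 3.39% of all genes did (1.67% higher), and 0 of the 8 for 10% against 5% RPS, where 2.79% did (1.64% higher). The interval of the Duox2 fold from 5 to 10% RPS, 0.770 to 3.14, holds 1, no change.

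The slope of log2 expression on the RPS content of the diet was tested over all 20 mice. By edgeR 3 of the 8 genes had a rising trend at an adjusted p of at most 0.05, against 0.378% of all genes, and 0 had a falling one, against 0.730%. At an unadjusted p under 0.05, 6 of the 8 had a positive slope, against 9.37% of all genes. DESeq2 called 4 of the 8, with Duox2 added, where it called 4.87% of its genes in either direction. The slope per 1% RPS on the log2 scale was 0.24 ± 0.05 (SE) for Nos2 (adjusted p = 0.0333 by edgeR), 0.05 ± 0.01 for Noxa1 (adjusted p = 0.0405 by edgeR), and 0.25 ± 0.06 for Duoxa2 (adjusted p = 0.0469 by edgeR). Duox2 had a slope of 0.18 ± 0.05 and an adjusted p of 0.0575 by edgeR. The count was 0 without 0% mouse 1, 3, 4, or 5 or 10% mouse 1 or 3. It was 1 (Nos2) without 2% mouse 1, 2, or 4, 5% mouse 1 or 2, or 10% mouse 2, and 2 (Nos2 and Noxa1) without 5% mouse 3 or 10% mouse 5. It was 4, with Duox2 added, without 2% mouse 3 or 5, 5% mouse 5, or 10% mouse 4.

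Levels were set against each other per kilobase of exon (RPKM), since the genes differ in length. With 0% RPS, Noxa1 was the most abundant of the 8 at 26.2 ± 2.03 RPKM (SD, n = 5), followed by Cyba at 10.0 ± 3.79, Duox2 at 7.60 ± 4.69, Duoxa2 at 3.99 ± 2.86, Noxo1 at 3.34 ± 0.239, Nox1 at 3.21 ± 0.799, Nos2 at 0.178 ± 0.109, and Duoxa1 at 0.058 ± 0.042. Neighbours in this order overlapped between mice, except that Noxa1 lay wholly above Cyba, and Nox1 wholly above Nos2. With 10% RPS the order was Noxa1 (39.4 ± 7.56 RPKM), Duox2 (30.2 ± 15.5), Duoxa2 (26.1 ± 16.4), Cyba (11.2 ± 2.07), Nox1 (4.22 ± 0.467), Noxo1 (4.09 ± 0.482), Nos2 (0.995 ± 0.616), and Duoxa1 (0.202 ± 0.129). Here Cyba lay wholly above Nox1, Noxo1 above Nos2, and Nos2 above Duoxa1, and the other neighbours overlapped.

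The per-length ratio of Duoxa2 to Duox2 had a median of 0.489 (0.378 to 0.610) with 0% RPS and 0.555 (0.493 to 0.841) with 2% RPS. It was 0.909 (0.702 to 0.999) with 5% RPS and 0.856 (0.643 to 0.972) with 10% RPS, so every mouse of these 2 diets was above every 0% RPS mouse. The ratio was not tested, and it depends on the exon lengths used and on the reads Duoxa2 shares with Duoxa1. Noxa1 stood at 6.56 to 12.0 times the per-length level of Nox1 in all 20 mice, and Noxo1 at 0.608 to 1.49 times. Ratios to Nox1 depend on exon lengths too, and on reads that may be shared with genes on the other strand. The ratio of Duox2 to Nox1, the 2 oxidases themselves, was 0.908 to 3.27 with 0% RPS and 2.26 to 11.9 with 10% RPS, and these ranges overlapped.

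The 8 genes differed in how widely the mice of 1 diet spread. The SD of log2 CPM within diets was 0.99 for Duoxa2, 0.91 for Duoxa1, 0.89 for Nos2, and 0.81 for Duox2. These were above 95.8% or more of all tested genes, whose median SD was 0.24. The SD was 0.41 for Cyba, 0.26 for Nox1, 0.19 for Noxa1, and 0.16 for Noxo1. Duox2 ranged 4.73-fold among the 0% RPS mice and 4.50-fold among the 10% RPS mice, while Noxo1 ranged 1.19- and 1.34-fold. For Duoxa1, and for Nos2 with 0% RPS, counts of under 60 add counting error to this spread.

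To ask whether the genes moved together within diets, the mean of each diet was taken from log2 CPM, and all 28 pairs were correlated over the 20 mice, with permutation of mice within diets. By Pearson's r, 8 pairs had an adjusted p of at most 0.05, all positive, and the median r over the 28 pairs was 0.27. Duox2 and Duoxa2 were the most closely correlated pair, with r = 0.98 and Spearman's rho = 0.98 (permutation p = 1e-05 for each, the smallest possible, and adjusted p = 0.00028). In the 0% RPS group both genes ranked the mice 1, 2, 3, 4, 5 from highest to lowest. With 5% RPS both were highest in mice 5 and 2, and with 10% RPS both were highest in mouse 3 and lowest in mice 4 and 1.

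**Figure D3:**
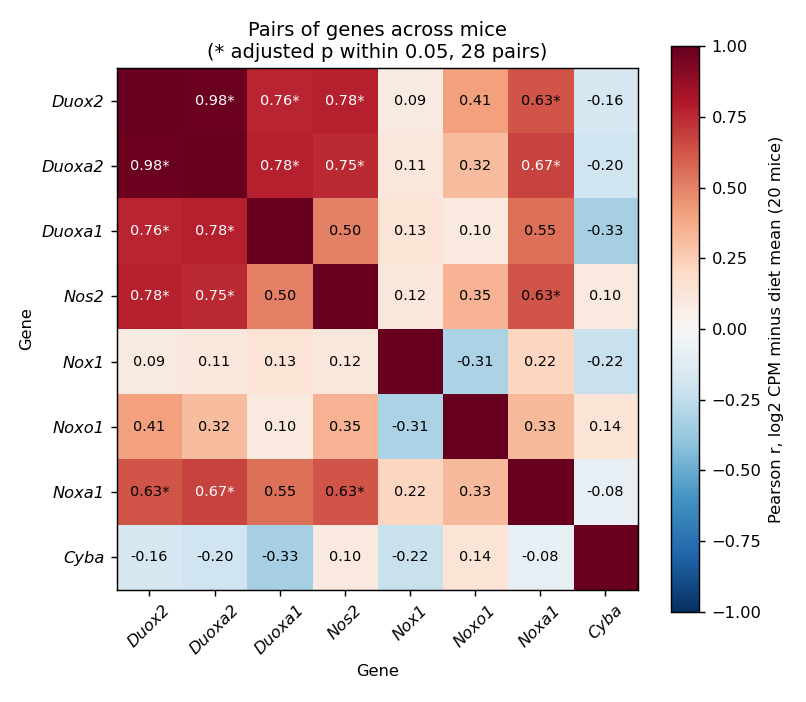
Pearson's r between each pair of the 8 genes over 20 mice, on log2 CPM with the mean of the diet taken away. Asterisks mark the 8 pairs with an adjusted p within 0.05: a block of Duox2, Duoxa2, Duoxa1, and Nos2, of which Duoxa1 and Nos2 do not reach it with each other, and Noxa1 with Duox2, Duoxa2, and Nos2. Duoxa1 and Duoxa2 share exon bases, and the part of shared reads was not tested.

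Nos2, on another chromosome, followed the DUOX2 pair, with r = 0.78 and rho = 0.82 against Duox2 (permutation p = 0.0004 and 0.00022, adjusted p = 0.00329 and 0.00235). Against Duoxa2 its r was 0.75 and its rho 0.80 (permutation p = 0.00102 and 0.00035, adjusted p = 0.00571 and 0.00235). Duoxa1 had r = 0.76 and rho = 0.78 with Duox2, and r = 0.78 and rho = 0.78 with Duoxa2 (permutation, adjusted p = 0.00329 for each r). Duoxa1 had 322 counts over all mice and Duoxa2 13378, and 682 exon bases are common to both. The part of shared reads in the Duoxa1 pairs was not tested. Noxa1 had r = 0.63 with Duox2, 0.67 with Duoxa2, and 0.63 with Nos2 (permutation, adjusted p = 0.0246, 0.0140, and 0.0238). By rho the first 2 of these Noxa1 pairs did not pass (0.55 and 0.60, permutation, adjusted p = 0.0894 and 0.0646), so that 6 pairs passed by Spearman. Without the 2 mice farthest from the median of the first gene, r was 0.98 for Duox2 with Duoxa2, 0.78 for Duox2 with Nos2, 0.71 for Duox2 with Duoxa1, and 0.53 for Duox2 with Noxa1. It was 0.79 for Duoxa2 with Duoxa1 and with Nos2, 0.62 for Duoxa2 with Noxa1, and 0.77 for Nos2 with Noxa1.

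None of the correlations of Nox1 with its own partners passed. Its r was 0.22 with Noxa1, -0.31 with Noxo1, and -0.22 with Cyba (permutation, adjusted p = 0.509, 0.371, and 0.658), and its rho was 0.33, -0.37, and -0.21 (permutation, adjusted p = 0.362, 0.345, and 0.633). With Duox2 the r of Nox1 was 0.09 and its rho 0.17 (permutation, adjusted p = 0.742 and 0.663). The count of 8 pairs was 5 without 2% mouse 5 or without 5% mouse 5, the mice with the most Duox2 in their diets. When diets were pooled without centring, 15 pairs passed.

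**Figure D4:**
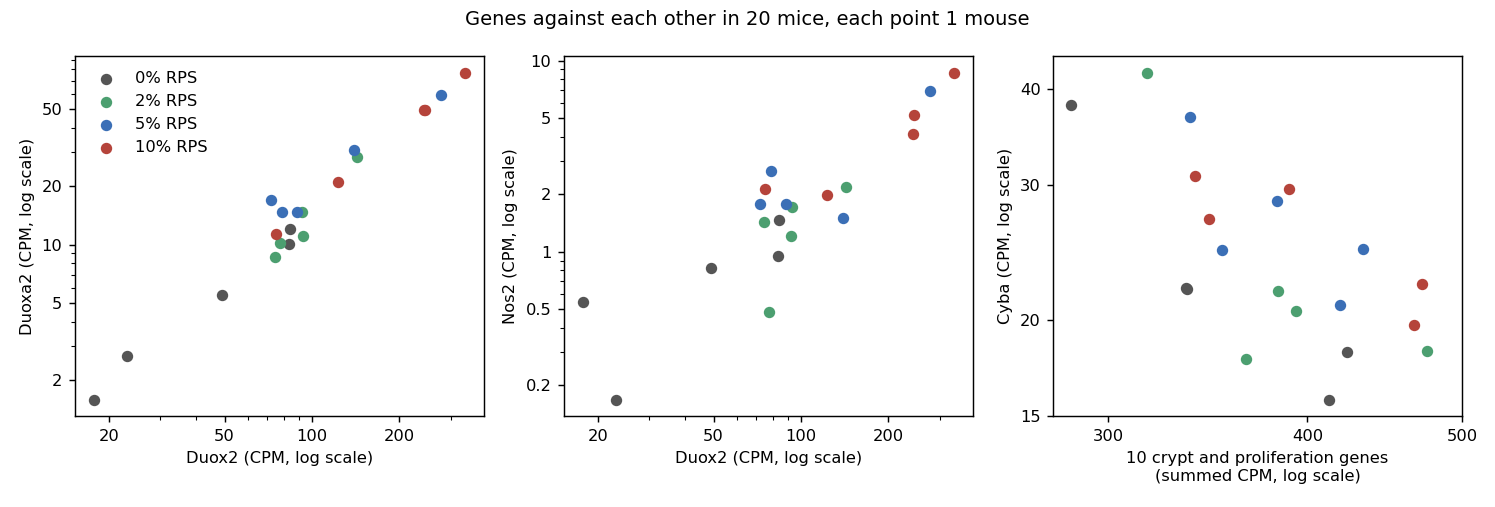
Each point is 1 of 20 mice, coloured by diet, with both axes on a log scale in CPM. Duoxa2 against Duox2 rises with little scatter, Nos2 against Duox2 rises with more scatter, and Cyba against the sum of 10 crypt and proliferation genes falls (r = -0.81 with the diet means taken away).

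The tested genes most like Duox2 over the 20 mice, by Pearson's r on the same centred scale, were Duoxa2 (0.98), Slc13a2 (0.83), Casp4 (0.82), Tram2 (0.82), and Htr1b (0.82). Slc13a2 encodes a dicarboxylate transporter, and Casp4 an inflammatory caspase that senses bacterial lipopolysaccharide. Nos2 ranked 12th among the other genes, Duoxa1 16th, and Noxa1 80th, while Nox1 ranked 6328th. For Nos2 the 5 most alike were Zc3h12a (0.85), which encodes an RNase that degrades inflammatory transcripts, Natd1 (0.80), Cdc42bpa (0.79), Pigr (0.78), the receptor that carries IgA across the epithelium, and Duox2 (0.78). For Nox1 they were Irf9 (0.84), a transcription factor of the interferon response, Kat6a (0.82), Heatr6 (0.81), Larp1 (0.80), and Mgat5 (0.79), with none of the other 7 genes among them.

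Duox2, Nos2, Noxa1, and Cyba were also set against 10 cell type marker sums and the total count of each mouse (44 relations, diet means taken away, permutation within diets). Duox2, Nos2, and Noxa1 had no relation that passed. The lowest adjusted p among them was that of Noxa1 with the fibroblast markers (r = 0.62 and rho = 0.55, permutation p = 0.00934 and 0.0209, adjusted p = 0.205 and 0.230). Cyba fell as the sum of 10 crypt and proliferation genes (among them Lgr5 and Mki67) rose, with r = -0.81 and rho = -0.79 (permutation p = 5e-05 and 0.00041, adjusted p = 0.0022 and 0.0180). Without the 2 farthest mice r was -0.77. Cyba's r was 0.53 with macrophage markers and 0.58 with T and NK cell markers (permutation, adjusted p = 0.322 and 0.274), and its rho was 0.60 for each (permutation, adjusted p = 0.181).

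The genes around these 8 were read from 5 lists. The other oxidases, nitric oxide synthases, and peroxidases had 0 of 12 tested genes past the threshold with 10% RPS by edgeR and 0 by DESeq2, and the median log2 fold change was 0.56, where that of all genes was 0.00. At an unadjusted p under 0.05, 6 were higher and 2 lower, against 9.74% of all genes higher and 9.75% lower. The 2 with the smallest p were Rac1, the GTPase that switches on NOX1 and NOX2 (log2 fold change -0.34 ± 0.11 (SE), adjusted p = 0.0934 by edgeR), and Nos3, the endothelial synthase (-0.65 ± 0.23, adjusted p = 0.129). Endothelial markers summed to 140.3 to 184 CPM with 0% RPS and 128 to 177 CPM with 10% RPS, and 0 of 10 passed by edgeR or DESeq2, with 0 higher and 3 lower at an unadjusted p under 0.05 and a median of -0.22. Their part in the Nos3 value was not tested. The phagocyte oxidase genes Cybb, Ncf1, and Ncf4, singled out after their values were seen, had log2 fold changes of 1.11 ± 0.46, 1.61 ± 0.71, and 1.54 ± 0.62 (adjusted p by edgeR = 0.198, 0.227, and 0.189). The median log2 fold change was 0.32 for the macrophage markers and 1.84 for the B and plasma cell markers, and the part of either in these values was not tested.

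Among 24 genes that remove peroxide and superoxide, 1 was lower past the threshold and 0 were higher, against 0.495% of all genes lower. At an unadjusted p under 0.05, 11 were lower and 0 higher, against 9.75% of all genes lower and 9.74% higher, with a median log2 fold change of -0.22. The gene past the threshold was Hmox1, the haem oxygenase induced by oxidative stress, which fell from 6.58 ± 1.34 CPM (SD, n = 5) with 0% RPS to 3.56 ± 0.258 with 10% RPS. This was -0.88 ± 0.20 (SE) on the log2 scale with an adjusted p of 0.0289 by edgeR, and the groups did not overlap. For the 21 genes of arginine and nitric oxide handling, 0 passed by edgeR, with a median of -0.14 and, at an unadjusted p under 0.05, 0 higher and 4 lower, against 9.74% and 9.75% of all genes. The 2 with the smallest p were Nos1ap, which binds the neuronal synthase (-0.86 ± 0.26 (SE), adjusted p = 0.0792 by edgeR), and Ddah1, which breaks down an inhibitor of the synthases (-0.37 ± 0.11, adjusted p = 0.0795). DESeq2 gave adjusted p-values of 0.0264 for Nos1ap, which it called, and 0.0357 for Ddah1, whose fold was too small.

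**Figure D5:**
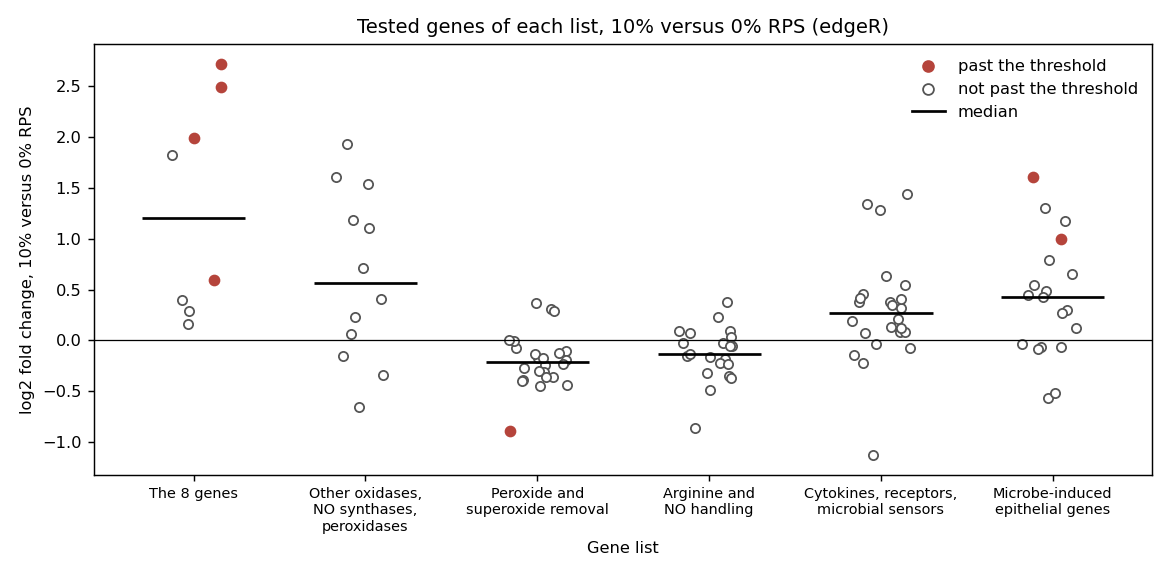
Log2 fold change of 10% against 0% RPS for the tested genes of the 8 and of the 5 lists, 1 point a gene, with filled points past the threshold and a line at each median. The 8 genes reach 2.72, the peroxide removal list has its median at -0.22, and the 2 filled points of the microbe-induced list are Saa1 (1.60) and Casp4 (1.0).

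For the cytokines, receptors, and microbial sensors that can induce these enzymes, 0 of 24 tested genes passed by edgeR, with 8 higher and 0 lower at an unadjusted p under 0.05, against 9.74% and 9.75% of all genes, and a median log2 fold change of 0.27, and DESeq2 called 1 (Tlr2). The 2 with the smallest p were Nod1, a sensor of bacterial peptidoglycan (0.32 ± 0.10 (SE), adjusted p = 0.0964 by edgeR), and Tlr2, a receptor for bacterial lipoproteins (0.64 ± 0.21, adjusted p = 0.106). Il17a, Il17f, Il22, Ifng, and Il6 were under the count filter. Of 19 tested epithelial genes known to follow microbial signals, 2 were higher past the threshold and 0 lower, against 0.547% and 0.495% of all genes, with a median of 0.42. Of the 19, 5 were higher and 1 lower at an unadjusted p under 0.05, against 9.74% and 9.75% of all genes. Casp4 had a log2 fold change of 1.0 ± 0.19 (SE) with an adjusted p of 0.0238 by edgeR, from 19.8 ± 3.87 to 39.5 ± 10.1 CPM (SD, n = 5). Saa1, an acute-phase apolipoprotein made by epithelium in contact with bacteria, had 1.60 ± 0.32 (SE) with an adjusted p of 0.0251 by edgeR, from 84.1 ± 37.4 to 255 ± 112 CPM (SD, n = 5). Saa1 is also in the list of surface colonocyte markers above, so both lists count the same result.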

How the data were processed

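Total cecum RNA from 20 mice was sequenced as stranded, polyadenylated 50 base single-end reads. Per the methods of the study, the authors removed nucleotides of low quality, mapped the reads to GRCm39, and obtained gene expression values. The deposited table holds whole numbers for each Ensembl gene in a column for each mouse, with totals that differ between mice, and was read as raw counts. The annotation release, the strand setting, and the handling of reads that map to several places are not given in the sources used here. Of 19887 gene identifiers, 19827 were named from GENCODE M39, whose exon lengths gave RPKM.

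Counts were tested in R 4.3.3 with edgeR 4.0.16 (TMM scaling, genes filtered by filterByExpr at 10 counts, total 15, and a robust quasi-likelihood fit of all 4 diets, Benjamini-Hochberg adjustment over 15348 genes). The linear trend had no fold threshold. DESeq2 1.42.0 was an alternative. CPM values use TMM factors (0.916 to 1.07), and correlations use log2 CPM with a prior count of 2 (Python 3.11.15, scipy 1.17.1, 100000 permutations). Total counts of 14967798 to 42687283 set the precision, and a floor of 3 counts covers counting error only. The 40 pairs of mice on 1 diet differed by more than sampling noise (chi-square per degree of freedom 12.3 to 122). On simulated counts for the 10% against 0% RPS comparison (15348 genes), edgeR found 76 of 100 genes simulated with a 2-fold change and 95 of 100 with a 4-fold change, and called 6 unchanged genes, and DESeq2 found 82 and 96 and called 14.

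All 8 genes are named. Of each list, the genes past the threshold for 10% against 0% RPS are named (up to 4), or else the 2 with the smallest p, and for Duox2, Nos2, and Nox1 the 5 genes of highest Pearson's r. The 8 genes and the lists were chosen with earlier results of these data known. Alternatives were other scaling, filters, tests, fits, prior counts, leaving out 230 immunoglobulin gene segments, and leaving out each mouse.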

Additional observations from a re-analysis of the deposited data

Results flagged for a closer look

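Cyba in mouse 3 of the 2% RPS group stood apart from the rest of its diet at 42.0 CPM, with the next highest mouse at 21.8 CPM. On the log2 CPM scale its gap to that mouse was 0.761 of the range of the 5 mice, above the critical value of 0.71. On that scale it was the 1 of 32 groups of 5 mice (8 genes on 4 diets) that stood out in this way, and chance alone gives about 1 in 20. The same mouse had the highest macrophage marker sum (356 CPM) and T and NK cell marker sum (74.1 CPM) and the lowest crypt and proliferation marker sum (317 CPM) of its diet, and the part of these in its Cyba level was not tested.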

How the results depend on the processing

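Apart from leaving out mice, 53 of the counts over the 8 genes stayed within 1.5 times and 4 moved. Most of the 53 were counts of 0 that stayed 0, in comparisons where 0 of the 8 genes passed, so they say little about stability. With only the 2 diets in the fit, 1 of the 8 genes (Noxa1) passed for 10% against 0% RPS, and with a test of the fold against 1.5 (glmTreat) 0 did. DESeq2 called 2 for 5% against 0% RPS, and pooling the diets gave 15 correlated pairs. For these the cause was not tested. Of the values of single genes and of the 8 correlated pairs, 450 kept their side of the threshold, 5 gained it, and 9 lost it. For r without the 2 farthest mice, a small change in r was counted as kept. Without 1 mouse at a time the counts ranged from 0 to 4 for 10% against 0% RPS, 0 to 1 for 5% against 0% RPS, and 0 to 4 for the trend, and the correlated pairs from 5 to 10. The same fits turned the sign of 7 log2 fold changes, none past the threshold: Cyba ranged from -0.25 to 0.33 for 2% against 0% RPS, and for 5% against 2% RPS Duox2 from -0.017 to 0.63, Duoxa1 from -0.0053 to 0.59, and Noxo1 from -0.13 to 0.024. Nox1 ranged from -0.0024 to 0.14 for 10% against 2% RPS, and for 10% against 5% RPS Noxa1 ranged from -0.011 to 0.15 and Cyba from -0.15 to 0.078. No paired analysis was possible because the labels number no mouse across diets. Depth limits Duoxa1 and Nos2 most.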
